A study of Mus musculus with 12 samples.

Results

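Polycomb repressive complex 2 (PRC2) is the histone methyltransferase that places methyl groups on lysine 27 of histone H3 (H3K27). The members described here were the genes of its catalytic and core subunits and of its main accessory subunits, chosen by symbol: *Ezh1*, *Ezh2*, *Eed*, *Suz12*, *Jarid2*, *Mtf2*, *Phf19* and *Aebp2*. All 8 were found among the 50978 rows of the deposited expression table, and all 8 were abundant enough to be tested. The mRNAs of *Ezh1* and *Suz12* stood at 0.51 and 0.53 times the parental level in ESC + H/F-PRAMEL7 WT, while *Ezh2* and *Eed* did not differ beyond their error. In ESC + H/F-PRAMEL7 ΔN, *Ezh1* and *Suz12* stood at 0.69 times the parental level each and *Ezh2* at 1.46 times. The tested genes of their chromosomes moved the same way there, with median log2 fold changes of -0.33 on chromosome 11 and 0.25 on chromosome 6. After centring on the genes within 2 Mb, these differences of *Ezh1*, *Suz12* and *Ezh2* in ESC + H/F-PRAMEL7 ΔN no longer passed the test. In ESC + H/F-PRAMEL7 WT the median of chromosome 11 was -0.36. There *Ezh1* and *Suz12* were still called after the same centring, with smaller fold changes.

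The study asked how PRAMEL7, a protein that works with the ubiquitin ligase scaffold CUL2, alters gene expression in mouse embryonic stem cells (ESCs) of the E14 line. RNA had been sequenced from parental ESCs, from ESC + H/F-PRAMEL7 WT, which express the full-length protein, and from ESC + H/F-PRAMEL7 ΔN, which express it without its N-terminus, all in medium with 15% serum and LIF. The transgenes, tagged with HA and FLAG (H/F), had been placed in *Rosa26* and were driven by the CAG promoter. Each derived line had been grown from a single cell and is treated here as 1 clone, so the transgene and the clone cannot be told apart. The labels give the deletion as 50 amino acids, whereas the study's text gives a shorter stretch. The methods speak of triplicates, but the table holds 2 libraries for each of the 3 lines. The labels number these as replicates of a line, so that the tests measure the spread between replicates of a line and not between clones. *Pramel7* itself had 0.26 and 0.22 CPM in the parental libraries, 51.2 and 46.2 in ESC + H/F-PRAMEL7 WT and 397.7 and 430.9 in ESC + H/F-PRAMEL7 ΔN. Here CPM are counts per 1000000 reads on genes, and 18250558 to 19850687 reads lay on genes per library. The 7 ESC markers were above 1 CPM in all 6 libraries, with a sum from 3902 to 4912 CPM.

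PRC2 is built on EED, SUZ12 and one of the alternative methyltransferases EZH1 and EZH2. EED binds H3K27me3 that is already present and raises the activity of the enzyme, and SUZ12 is the scaffold on which the other subunits assemble. Accessory subunits define alternative forms of the complex: JARID2 and AEBP2 mark PRC2.2, and the Polycomb-like proteins MTF2, PHF19 and PHF1 mark PRC2.1. In ESCs the complex is known for covering the CpG islands of silent developmental genes with H3K27me3, and ESCs without it stay alive but fail to differentiate properly.

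The members lie on 6 chromosomes of the mouse genome (mm10), with *Ezh1* and *Suz12* both on chromosome 11 and *Ezh2* and *Aebp2* both on chromosome 6. Upstream sequences are shown for the 3 members whose mRNA moved most, *Ezh1*, *Suz12* and *Ezh2*. They come from RefSeq on GRCm38.p6 and run 5′ to 3′ on the strand of the gene. For *Ezh1* (chr11:101226464-101226713, minus strand) and *Suz12* (chr11:79992856-79993105, plus strand) these are the 250 bases that end just before the annotated start. For *Ezh2* only 30 bases are shown (chr6:47595176-47595205, minus strand), because exons annotated to the gene reach into its window. Capitals mark a match to the NRF1 motif (GCGC, any 2 bases, GCGC) in *Ezh1* and *Ezh2* and a CCAAT box in *Suz12*.
Ezh1: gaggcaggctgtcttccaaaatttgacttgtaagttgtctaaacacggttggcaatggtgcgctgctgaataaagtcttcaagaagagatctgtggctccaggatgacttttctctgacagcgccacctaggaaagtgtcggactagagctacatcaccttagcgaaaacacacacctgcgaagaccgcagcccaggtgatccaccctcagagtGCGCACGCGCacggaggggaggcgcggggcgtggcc
Suz12: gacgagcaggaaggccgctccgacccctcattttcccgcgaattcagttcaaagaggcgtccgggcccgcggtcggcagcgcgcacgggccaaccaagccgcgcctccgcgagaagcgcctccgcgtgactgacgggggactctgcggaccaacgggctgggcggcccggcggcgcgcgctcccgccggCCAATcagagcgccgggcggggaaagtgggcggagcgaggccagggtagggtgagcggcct
Ezh2: cctgtcactcGCGCACGCGCtggtgagcct

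The same 10 letters, GCGCACGCGC, stood 36 bases upstream of the *Ezh1* start and 165 bases upstream of the RefSeq start of *Ezh2* used for this window, which lies inside the longer span that GENCODE gives the gene. All 8 members had an entry in the promoter table, with 12 starts between them, and the other 6 members had no NRF1 match in their 250 bases. Over all 32851 promoters of the same length, 4.98% held this motif. The CCAAT box, searched on both strands as CCAAT, had 3 matches upstream of that *Ezh2* start and 1 upstream of *Suz12* and was found in 33.8% of all promoters. The GC box GGGCGG had 3 matches upstream of *Suz12*, none upstream of *Ezh1* and *Ezh2*, and was found in 32.7% of all. The E2F motifs TTTGGCGC and TTTCGCGC had no match in any of the 12 windows, against 0.654% of all promoters. Counting CG pairs, *Suz12* had 37, *Ezh2* 23 and *Ezh1* 14, against a median of 6 over all promoters. These matches describe the letters of the windows and say nothing of binding.

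The first comparison asked how PRC2 mRNAs in ESC + H/F-PRAMEL7 WT stood against parental ESCs. Of the 8 members, 4 were lower at an adjusted p under 0.05 (*Ezh1*, *Suz12*, *Jarid2* and *Mtf2*) and 0 were higher, from limma on log2(CPM + 1) with Benjamini-Hochberg adjustment over all 12914 genes tested. Of all genes tested, 25.0% passed the threshold, 16.3% as lower and 8.71% as higher. The median log2 fold change of the members was -0.24, beside -0.08 for all genes. Against the same parental ESCs, 2 members were lower in ESC + H/F-PRAMEL7 ΔN (*Ezh1* and *Suz12*) and 2 higher (*Ezh2* and *Phf19*), where 19.9% of all genes passed, 13.6% as lower and 6.25% as higher. The median of the members there was 0.06 and that of all genes -0.06. Both comparisons share the parental libraries. Between the derived lines, 5 of 8 members were lower in ESC + H/F-PRAMEL7 WT than in ESC + H/F-PRAMEL7 ΔN and 0 higher, with 20.4% of all genes passing, 9.44% as lower and 10.9% as higher. All 8 log2 fold changes of this contrast were negative, with a median of -0.34 beside -0.02 for all genes. The chromosome of *Ezh2* and *Aebp2*, chromosome 6, had a median of -0.39 in this contrast. After centring on that chromosome or on neighbours, *Aebp2* was positive. The values of every library are drawn in the plot of the 8 members, and the fold changes in the plot of the 3 contrasts.

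**Figure D1:**
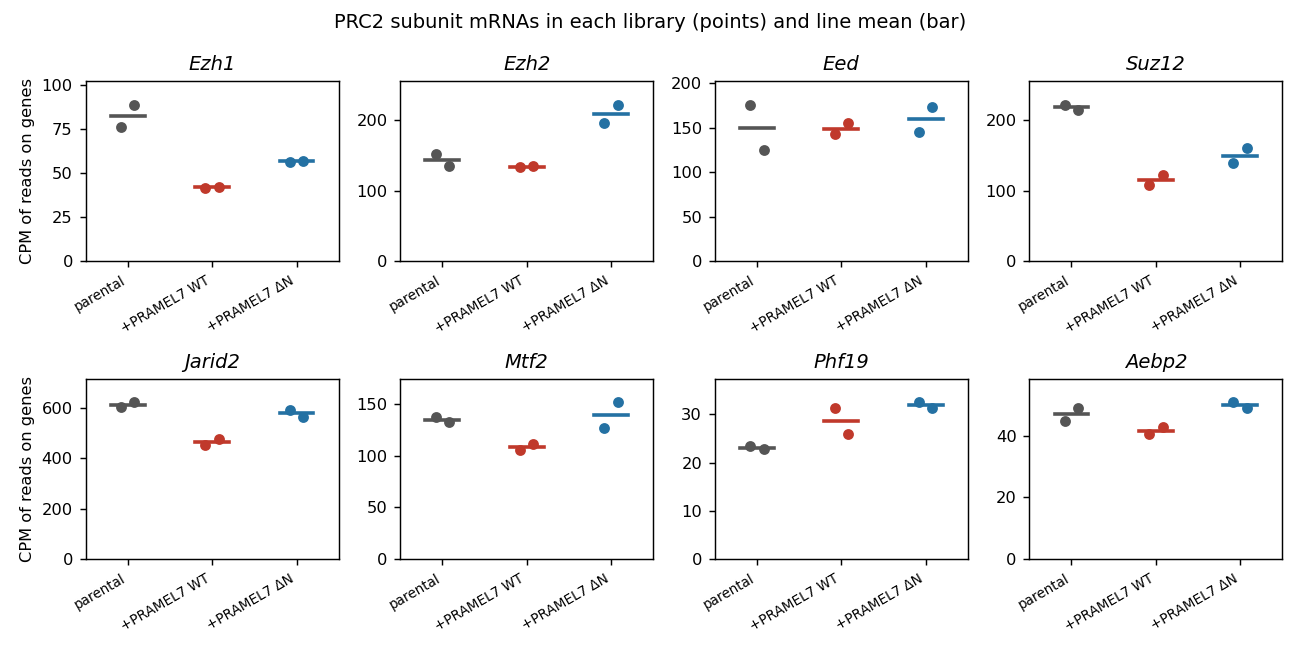
Each panel shows 1 PRC2 gene, with CPM of reads on genes on the y axis from 0, the 2 libraries of each line as points and their mean as a bar. *Ezh1* and *Suz12* were lowest in ESC + H/F-PRAMEL7 WT (means 41.9 and 114.8 CPM), *Ezh2* was highest in ESC + H/F-PRAMEL7 ΔN (208.8 CPM), and the libraries of the 3 lines overlapped for *Eed*.

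Against parental ESCs, *Ezh1* was lower in both derived lines, and *Ezh2* was higher in ESC + H/F-PRAMEL7 ΔN alone. Between the derived lines, both catalytic subunits were lower in ESC + H/F-PRAMEL7 WT. *Ezh1*, which encodes the less active methyltransferase and is best known from non-dividing cells, lies on chromosome 11 from 101191115 to 101226463. It had 76.1 and 88.7 CPM in the parental libraries, 41.6 and 42.1 in ESC + H/F-PRAMEL7 WT and 56.3 and 56.9 in ESC + H/F-PRAMEL7 ΔN. The 3 lines did not overlap, and both derived lines were below the parental one. The log2 fold change was -0.96 for ESC + H/F-PRAMEL7 WT (95% interval -1.18 to -0.73, adjusted p = 0.000818) and -0.53 for ESC + H/F-PRAMEL7 ΔN (-0.76 to -0.30, adjusted p = 0.00672). The direct contrast of the derived lines gave -0.43 (-0.65 to -0.20, adjusted p = 0.0181). The call for ESC + H/F-PRAMEL7 ΔN was lost without either of its own libraries (highest adjusted p = 0.066), and that between the derived lines without any 1 of their 4 libraries (highest adjusted p = 0.134).

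*Ezh2*, the main methyltransferase of dividing cells, lies on chromosome 6 from 47530139 to 47595341. It had 151.8 and 134.2 CPM in the parental libraries, 133.6 and 134.6 in ESC + H/F-PRAMEL7 WT and 195.5 and 222.0 in ESC + H/F-PRAMEL7 ΔN. Both ΔN libraries were above the other 4, whereas those of ESC + H/F-PRAMEL7 WT overlapped the parental ones. For ESC + H/F-PRAMEL7 WT the log2 fold change of -0.09 did not pass the test (-0.31 to 0.13, adjusted p = 0.526). For ESC + H/F-PRAMEL7 ΔN it was 0.54 (0.32 to 0.76, adjusted p = 0.00505), and the derived lines differed by -0.63 (-0.85 to -0.41, adjusted p = 0.00233). Without replicate 2 of ESC + H/F-PRAMEL7 ΔN the call for that line was lost (adjusted p = 0.0624). A long non-coding gene, *Gm26625*, shares 174 bases of exon with *Ezh2* on the opposite strand. The study's text does not say whether the libraries kept the strand, so reads of that stretch may come from either gene.

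The shares of the alternative enzymes followed from these values. Of the reads on *Ezh1* and *Ezh2* together, *Ezh1* held 33.4% (exact 95% binomial interval 32.0 to 34.8) and 39.8% (38.3 to 41.3) in the parental libraries. In ESC + H/F-PRAMEL7 WT it held 23.8% in each library (22.3 to 25.2 and 22.4 to 25.4), and in ESC + H/F-PRAMEL7 ΔN 22.4% (21.2 to 23.5) and 20.4% (19.3 to 21.5). Both derived lines thus had a smaller *Ezh1* share than either parental library, in the former with *Ezh1* alone lower and in the latter with *Ezh1* lower and *Ezh2* higher. Counted per exon length, the *Ezh1* share was 31.0 and 37.2% in parental ESCs, 21.9% in both libraries of ESC + H/F-PRAMEL7 WT, and 20.5 and 18.7% in ESC + H/F-PRAMEL7 ΔN. The intervals cover counting error only, and the gap between the parental libraries was wider than their intervals.

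**Figure D2:**
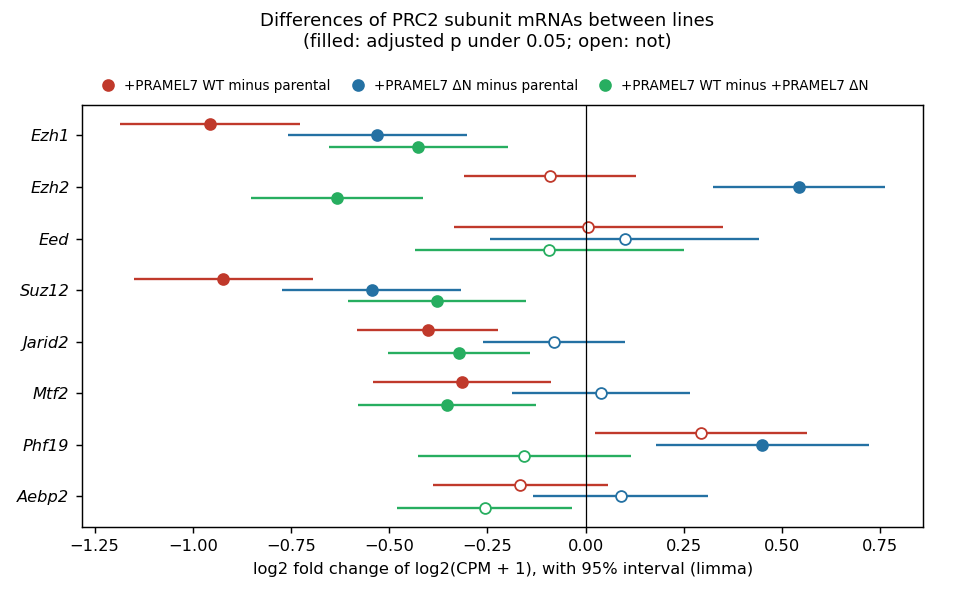
Points give the log2 fold change of log2(CPM + 1) for each member in 3 contrasts, with 95% intervals from limma, filled where the adjusted p was under 0.05. *Ezh1* and *Suz12* were at -0.96 and -0.92 in ESC + H/F-PRAMEL7 WT, *Ezh2* at 0.54 in ESC + H/F-PRAMEL7 ΔN, and all 8 points of the contrast of the derived lines were below 0.

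Of the core subunits without enzyme activity, *Suz12* changed and *Eed* did not pass the test in any contrast. *Suz12*, the scaffold, lies on chromosome 11 from 79993106 to 80034123. It had 222.1 and 214.0 CPM in the parental libraries, 107.4 and 122.2 in ESC + H/F-PRAMEL7 WT and 138.9 and 160.2 in ESC + H/F-PRAMEL7 ΔN. The order of the lines was that of *Ezh1*, again with no overlap. The log2 fold change against parental ESCs was -0.92 for ESC + H/F-PRAMEL7 WT (-1.15 to -0.70, adjusted p = 0.000861) and -0.54 for ESC + H/F-PRAMEL7 ΔN (-0.77 to -0.32, adjusted p = 0.00588). Between the derived lines it was -0.38 (-0.61 to -0.15, adjusted p = 0.0283). Without replicate 1 of ESC + H/F-PRAMEL7 ΔN the call for that line was lost (adjusted p = 0.0745), and the contrast of the derived lines was lost without replicate 2 of that line or either library of ESC + H/F-PRAMEL7 WT (highest adjusted p = 0.244). *Gm26563*, a non-coding gene on the opposite strand, shares 178 bases of exon with *Suz12*.

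*Eed*, the reader of H3K27me3, lies on chromosome 7 from 89954654 to 89980983. It had 176.2 and 124.5 CPM in the parental libraries, 142.9 and 155.0 in ESC + H/F-PRAMEL7 WT and 145.1 and 173.8 in ESC + H/F-PRAMEL7 ΔN. The parental libraries differed by 1.42 times, the widest gap between libraries of a line among the members, and enclosed all 4 values of the derived lines. Its intervals therefore left room for changes of some size, from -0.34 to 0.35 on the log2 scale for ESC + H/F-PRAMEL7 WT and from -0.24 to 0.44 for ESC + H/F-PRAMEL7 ΔN. Without parental replicate 1, *Eed* was called higher in ESC + H/F-PRAMEL7 ΔN with 0.35 (adjusted p = 0.017). *E230029C05Rik* shares 261 bases of exon with it on the opposite strand.

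Among the accessory subunits, *Jarid2* and *Mtf2* were lower in ESC + H/F-PRAMEL7 WT than in either other line. *Jarid2*, which recruits and stimulates PRC2.2, lies on chromosome 13 from 44729474 to 44921643 and had the most reads of the members. Its libraries gave 602.6 and 622.4 CPM in the parental libraries, 451.4 and 475.0 in ESC + H/F-PRAMEL7 WT and 593.3 and 565.5 in ESC + H/F-PRAMEL7 ΔN. The log2 fold change was -0.40 for ESC + H/F-PRAMEL7 WT (-0.58 to -0.22, adjusted p = 0.00784) and -0.32 between the derived lines (-0.50 to -0.14, adjusted p = 0.0213). For ESC + H/F-PRAMEL7 ΔN it was -0.08 (-0.26 to 0.10, adjusted p = 0.53), although both ΔN libraries were below both parental ones. The call for ESC + H/F-PRAMEL7 WT was lost when either of its own libraries was left out, with a highest adjusted p of 0.0998, and that between the derived lines without any 1 of their libraries (highest adjusted p = 0.191).

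*Mtf2*, the Polycomb-like subunit that binds unmethylated CpG-rich DNA, lies on chromosome 5 from 108065674 to 108109004. It had 136.9 and 132.8 CPM in the parental libraries, 105.5 and 111.0 in ESC + H/F-PRAMEL7 WT and 126.7 and 151.6 in ESC + H/F-PRAMEL7 ΔN. Both libraries of ESC + H/F-PRAMEL7 WT were below the other 4, and those of the other lines overlapped. The log2 fold change of -0.31 (-0.54 to -0.09) was just inside the threshold with an adjusted p of 0.0477 and was called in 8 of 19 alternative fits. Between the derived lines it was -0.35 (-0.58 to -0.13, adjusted p = 0.0361), and for ESC + H/F-PRAMEL7 ΔN 0.04 (-0.19 to 0.27, adjusted p = 0.825). With the library number as a block, the adjusted p of both former contrasts rose above 0.05. Both were also lost without either library of ESC + H/F-PRAMEL7 WT (highest adjusted p = 0.259 and 0.229), and the contrast of the derived lines without replicate 2 of ESC + H/F-PRAMEL7 ΔN (adjusted p = 0.297). The protein-coding *Tmed5* shares 395 bases of exon with *Mtf2* on the opposite strand.

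*Phf19*, another Polycomb-like subunit, was the member with the fewest reads. It lies on chromosome 2 from 34893757 to 34914026 and had 23.4 and 22.8 CPM in the parental libraries, 31.3 and 25.9 in ESC + H/F-PRAMEL7 WT and 32.5 and 31.3 in ESC + H/F-PRAMEL7 ΔN. All 4 libraries of the derived lines were above the parental ones. The log2 fold change passed in ESC + H/F-PRAMEL7 ΔN with 0.45 (0.18 to 0.72, adjusted p = 0.0285) and missed in ESC + H/F-PRAMEL7 WT with 0.29 (0.02 to 0.56, adjusted p = 0.101). The latter was called in 1 of 19 alternative fits, that with median-ratio scaling (0.38, adjusted p = 0.0487). The derived lines themselves differed by -0.16 (-0.43 to 0.11, adjusted p = 0.386), so that a difference between these effects was not shown. The call for ESC + H/F-PRAMEL7 ΔN was lost without either of its libraries (highest adjusted p = 0.168).

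*Aebp2*, the DNA-binding partner of JARID2 in PRC2.2, lies on chromosome 6 from 140622663 to 140678472 and passed the test in no contrast with all libraries. It had 44.8 and 49.1 CPM in the parental libraries, 40.6 and 42.8 in ESC + H/F-PRAMEL7 WT and 50.9 and 49.1 in ESC + H/F-PRAMEL7 ΔN. The libraries of ESC + H/F-PRAMEL7 WT were below those of both other lines, with a log2 fold change of -0.17 against parental ESCs (-0.39 to 0.06, adjusted p = 0.238) and of -0.26 against ESC + H/F-PRAMEL7 ΔN (-0.48 to -0.03, adjusted p = 0.0979). The latter passed without either parental library (lowest adjusted p = 0.0302). Over the 8 members, the libraries did not overlap for 6 in ESC + H/F-PRAMEL7 WT and for 5 in ESC + H/F-PRAMEL7 ΔN against parental ESCs, where the shares over all tested genes were 64.2% and 57.0%. Between the derived lines they did not overlap for 6, against 68.8% of all tested genes.

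Levels of different subunits were compared only after division by exon length, as transcripts per 1000000 transcripts (TPM). In parental ESCs the order was *Jarid2* with 211.1 ± 9.08 TPM (SD, n = 2 libraries), *Suz12* with 147.6 ± 0.86, *Eed* with 131.1 ± 29.3, *Mtf2* with 79.2 ± 0.093, *Ezh2* with 71.6 ± 4.78, *Ezh1* with 37.1 ± 4.75, *Aebp2* with 16.0 ± 1.36 and *Phf19* with 15.3 ± 0.030. The neighbours *Suz12* and *Eed* overlapped between libraries, as did *Aebp2* and *Phf19*, so their order was not resolved. This order shifted in the derived lines, where *Suz12* with 73.9 ± 5.85 TPM stood below *Eed* with 123.9 ± 5.69 and above *Ezh2* with 63.9 ± 0.42 in ESC + H/F-PRAMEL7 WT. In ESC + H/F-PRAMEL7 ΔN, *Ezh2* with 104.2 ± 8.77 TPM overlapped *Suz12* with 100.8 ± 9.59. The core mRNAs were present in other proportions in each line, as the plot of levels per exon length shows. In bulk RNA, fewer cells with an mRNA and less of it per cell cannot be told apart.

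**Figure D3:**
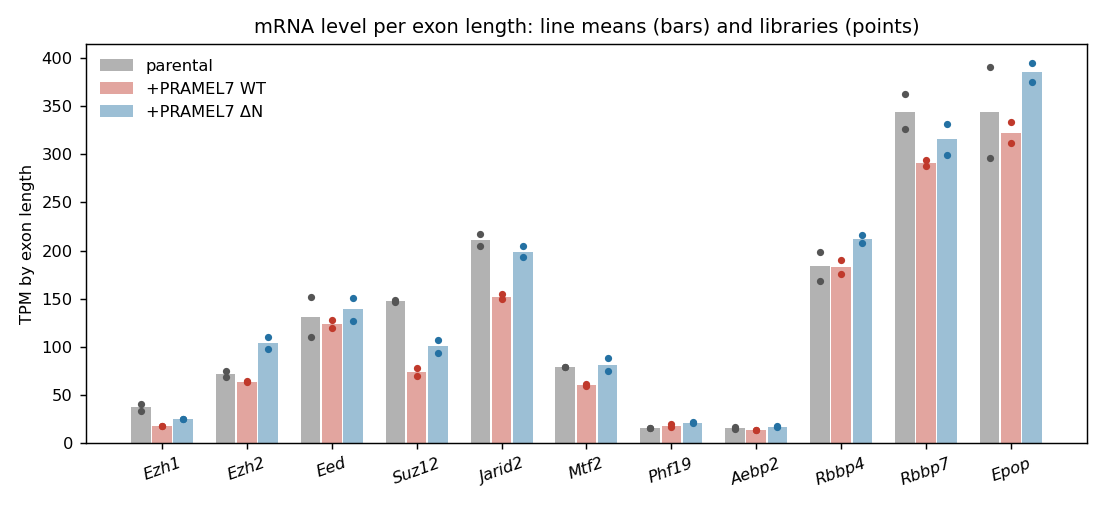
Bars give the mean TPM by exon length of 2 libraries per line and points the libraries, for the 8 members and 3 further subunits. *Suz12* fell from 147.6 to 73.9 TPM in ESC + H/F-PRAMEL7 WT, while *Rbbp4*, *Rbbp7* and *Epop* stood at 183.8, 344.3 and 343.6 TPM in parental ESCs.

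The members were set beside the genes around them. On chromosome 11, which holds *Ezh1* and *Suz12*, the 1102 tested genes had a median log2 fold change of -0.36 in ESC + H/F-PRAMEL7 WT and of -0.33 in ESC + H/F-PRAMEL7 ΔN, against -0.04 between the derived lines. On chromosome 6, which holds *Ezh2* and *Aebp2*, the 603 tested genes had medians of -0.26, 0.25 and -0.39 in the same order.

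Within 2 Mb of *Ezh1*, 96 genes were tested in ESC + H/F-PRAMEL7 WT, of which 43 were lower and 3 higher, with a median of -0.36, and 7 of the 96 had a lower log2 fold change than *Ezh1*. Around *Suz12*, 22 of 44 were lower and 1 higher, the median was -0.34, and 3 were below *Suz12*. After each library was centred on the median of these neighbours, an alternative added after the values were seen, both genes were still called, *Ezh1* with a log2 fold change of -0.61 (adjusted p = 0.00281) and *Suz12* with -0.54 (adjusted p = 0.00733). Centring on the chromosome median gave -0.59 (adjusted p = 0.00324) and -0.55 (adjusted p = 0.00465).

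For ESC + H/F-PRAMEL7 ΔN the same centring ended the calls of *Ezh1* and *Suz12*. The medians of their neighbours were -0.31 and -0.35 there. After centring on the neighbours, *Ezh1* had -0.22 (adjusted p = 0.15) and *Suz12* -0.18 (adjusted p = 0.275), and after centring on the chromosome -0.22 (adjusted p = 0.185) and -0.23 (adjusted p = 0.162). The lower level of both mRNAs in this line was thus not separated from that of the surrounding genes.

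*Ezh2* stood above 25 of the 28 tested genes within 2 Mb in ESC + H/F-PRAMEL7 ΔN, whose median was 0.25. Centring on the chromosome kept its call with 0.47 (adjusted p = 0.0111), and centring on the neighbours ended it with 0.31 (adjusted p = 0.057). In the contrast of the derived lines the outcome was the other way round. *Ezh2* was called after centring on the neighbours with -0.42 (adjusted p = 0.0149) and missed after centring on the chromosome with -0.26 (adjusted p = 0.11). The 29 genes around *Mtf2* had a median of -0.32 in ESC + H/F-PRAMEL7 WT, and centring on them left *Mtf2* at -0.07 (adjusted p = 0.63). *Jarid2*, with 15 neighbours at a median of -0.07, lost its call in ESC + H/F-PRAMEL7 WT under both centrings, with -0.26 on the neighbours (adjusted p = 0.0562) and -0.27 on the chromosome (adjusted p = 0.0699). *Phf19* in ESC + H/F-PRAMEL7 ΔN kept its call under both centrings, with 0.40 (adjusted p = 0.0431) and 0.52 (adjusted p = 0.0177). The part of chromosome or clone in these values was not tested beyond this.

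**Figure D4:**
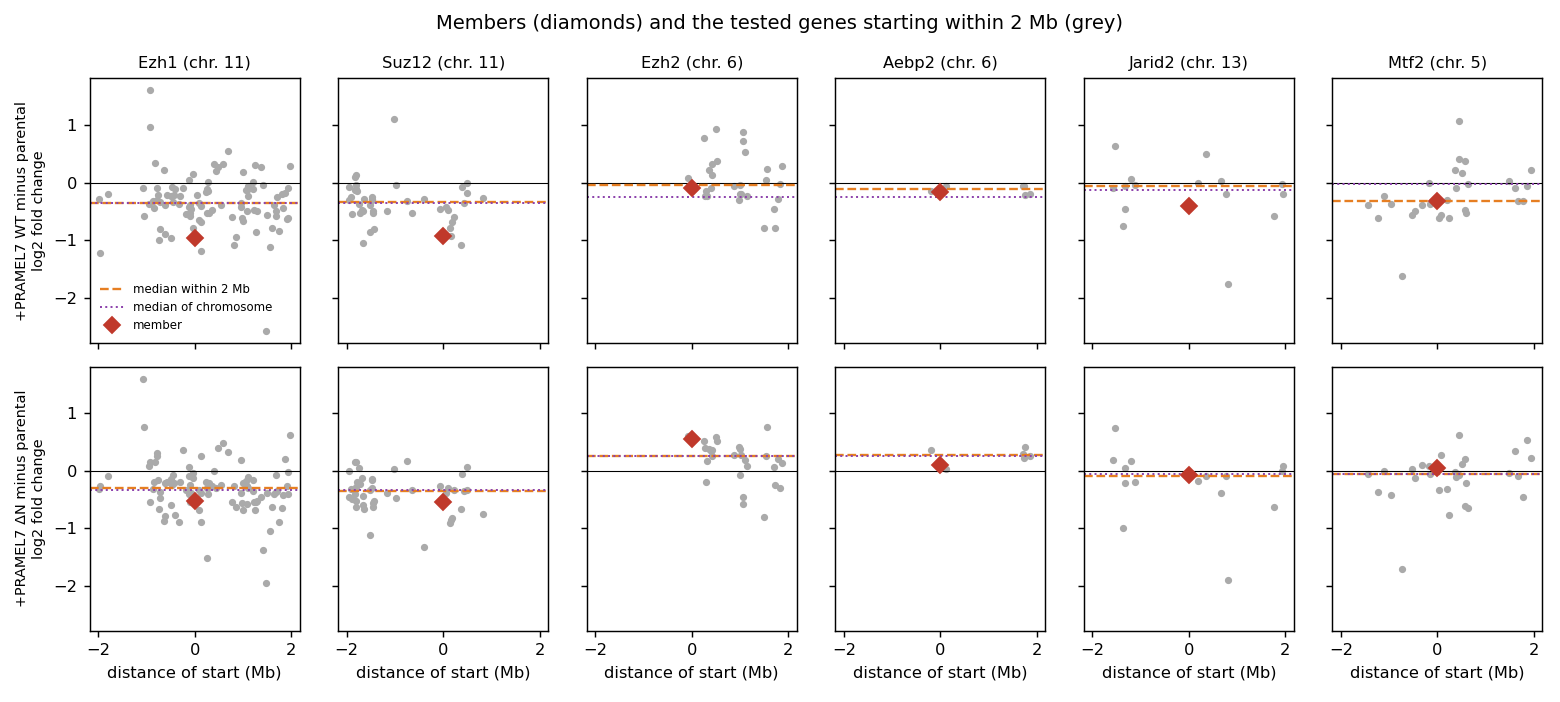
Grey points give the log2 fold change (y axis) of the tested genes that start within 2 Mb of 6 members by their distance in Mb (x axis), diamonds the member at 0, dashed lines the median of these genes and dotted lines that of the chromosome. *Ezh1* lies 0.60 and *Suz12* 0.58 below the median of their neighbours in ESC + H/F-PRAMEL7 WT, and *Ezh2* in ESC + H/F-PRAMEL7 ΔN lies 0.29 above it.

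The genes most like *Ezh1* and *Ezh2* in their pattern were sought among 8559 genes with a mean of at least 10 CPM, by the root mean square difference of log2 values centred on their mean over the 6 libraries. For *Ezh1*, whose own values spread by 0.40 about their mean, these were *Sec24a* (0.074) and *Nlk* (0.076) on chromosome 11 and *Prelid2* (0.077) on chromosome 18. *Prelid2* had 38.1 ± 5.43, 17.9 ± 1.32 and 23.9 ± 1.95 CPM (SD, n = 2 each) in parental ESCs, ESC + H/F-PRAMEL7 WT and ESC + H/F-PRAMEL7 ΔN. For *Ezh2*, with a spread of 0.29, they were *Tnpo3* (0.045), *1810058I24Rik* (0.057) and *Vhl* (0.060), all on chromosome 6 as *Ezh2* is. *Tnpo3* had 215.1 ± 21.2, 192.1 ± 0.72 and 313.8 ± 13.0 CPM (SD, n = 2 each).

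Of 7 further subunits of PRC2, all were tested. Among them 1 passed as higher and 1 as lower in ESC + H/F-PRAMEL7 WT, in ESC + H/F-PRAMEL7 ΔN 0 and 1, and between the derived lines 1 and 0. Over all genes tested, 25.0, 19.9 and 20.4% passed in either direction in these contrasts. The histone-binding *Rbbp4* and *Rbbp7* and the PRC2.1 subunit *Epop* passed in no contrast, with log2 fold changes between -0.17 and 0.21 against parental ESCs. *Phf1* and *Lcor* had 3.51 ± 0.51 and 6.99 ± 1.85 CPM in parental ESCs (SD, n = 2) and passed in none. *Lcorl* was lower in ESC + H/F-PRAMEL7 WT, with 2.21 ± 0.32 CPM against 3.74 ± 0.47 (SD, n = 2 each, log2 fold change -0.56, adjusted p = 0.0391).

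The subunit that differed most between the lines was *Ezhip*, an X-linked gene from 6081219 to 6083419 whose product inhibits the methyltransferase, listed in the table under an older symbol. It had 5.63 and 7.49 CPM in the parental libraries, 11.9 and 11.0 in ESC + H/F-PRAMEL7 WT and 1.96 and 2.11 in ESC + H/F-PRAMEL7 ΔN, from 39 to 235 reads per library. The 3 lines did not overlap, and the derived lines lay on opposite sides of the parental one. The log2 fold change was 0.73 for ESC + H/F-PRAMEL7 WT (0.35 to 1.11, adjusted p = 0.0142), -1.31 for ESC + H/F-PRAMEL7 ΔN (-1.68 to -0.93, adjusted p = 0.00101) and 2.03 between them (1.66 to 2.41, adjusted p = 8.59e-05).

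Of the demethylases that remove methyl groups from H3K27, *Kdm6a* and *Kdm6b* passed in no contrast, with means of 54.4 and 48.0 CPM in parental ESCs. *Uty*, the Y-linked relative of *Kdm6a*, had 116 and 45 reads in the parental libraries, 148 and 162 in ESC + H/F-PRAMEL7 WT and 0 and 1 in ESC + H/F-PRAMEL7 ΔN. A count of 1 over both ΔN libraries is too low for a fold change. For ESC + H/F-PRAMEL7 WT the log2 fold change was 0.90 (0.26 to 1.55, adjusted p = 0.0459), with parental libraries that differed from each other at 5.98 and 2.44 CPM.

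To see whether genes that PRC2 is known to cover in ESCs moved, a list of 78 developmental regulators was followed, written from general knowledge. Of these, 61 were below the limit of 1 CPM in at least 2 libraries, and 17 were tested. For ESC + H/F-PRAMEL7 WT, 3 passed as higher and 1 as lower, with a median log2 fold change of 0.10 beside -0.08 for all genes. In ESC + H/F-PRAMEL7 ΔN 6 were higher and 2 lower, with a median of 0.37 beside -0.06. Between the derived lines 2 were higher and 3 lower, with a median of -0.08 beside -0.02. Over all genes tested, 8.71, 6.25 and 10.9% passed as higher in these contrasts, and 16.3, 13.6 and 9.44% as lower. A gene that passed the limit only through the line in which it was high had to differ, so these counts and medians describe the 17 genes and not the list.

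The called genes named here were at low levels. *Eomes*, a T-box factor of mesendoderm and trophoblast, had 4.59 ± 0.44 CPM in parental ESCs, 5.20 ± 1.05 in ESC + H/F-PRAMEL7 WT and 9.87 ± 1.04 in ESC + H/F-PRAMEL7 ΔN (SD, n = 2 each, 0.96 for the last, adjusted p = 0.00513). *Gata4*, an endoderm factor, had 1.39 and 0.76 CPM in the parental libraries and 2.26 to 2.66 CPM in the derived lines, from 14 to 53 reads per library. It was above the limit of 1 CPM in both libraries of the derived lines alone, so its difference is given without a test. Those lower in the contrast of the derived lines included *Eomes* with -0.82 (adjusted p = 0.0108) and *Hoxb9* with -1.05 (adjusted p = 0.00462).

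*Cdkn2a*, the cell cycle inhibitor locus and a classical PRC2 target, had 6.55 and 8.51 CPM in the parental libraries, 12.3 and 15.4 in ESC + H/F-PRAMEL7 WT and 6.22 and 6.33 in ESC + H/F-PRAMEL7 ΔN. It was thus higher in ESC + H/F-PRAMEL7 WT than in parental ESCs, with a log2 fold change of 0.80 (adjusted p = 0.00985), and than in ESC + H/F-PRAMEL7 ΔN, with 1.02 (adjusted p = 0.00332). *Sox7*, of endoderm, was higher in the same line with 0.58 (adjusted p = 0.0407). *Msx2* had 2.22 and 1.19 CPM in the parental libraries and 0.42 to 0.70 CPM in the derived lines, and since it was above the limit of 1 CPM in the parental libraries alone, its difference is given without a test. *Tbx3*, at 158.7 ± 13.1 CPM (SD, n = 2) the most abundant of the 17, passed in no contrast.

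Markers of other cell types were read beside these values. The 5 trophoblast markers summed to 62.7 and 100.4 CPM in the parental libraries, 69.8 and 74.0 in ESC + H/F-PRAMEL7 WT and 33.1 and 33.5 in ESC + H/F-PRAMEL7 ΔN, nearly all from *Tfap2c*, while *Cdx2* had at most 4 reads in any library. The 5 fibroblast markers summed to 41.8 and 55.6, 21.1 and 22.4, and 38.8 and 43.7 CPM in the same order, led by *Thy1*, with *Lum* at 0 and *Col3a1* at 0 or 1 read in all libraries. Those of primitive endoderm, which include *Gata4*, summed to 3.64 to 5.52 CPM, and the 4 of 2-cell-like cells to at most 0.101 CPM. The part of such cells in the differences above was not tested.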

How the data were processed

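Polyadenylated RNA of 6 libraries was analysed, and the 6 chromatin samples of the series were not analysed here. The authors mapped reads to mm10, counted them on exons and deposited RPKM values. Their deposited comparison tables, which hold fold changes, P values and mean reads, were not used. Per the labels, the submitters' processing notes name Bowtie2 2.3.4.3, Subread 1.4.6-p4 and deepTools 3.2.1 without a role.

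Of 50978 table rows, those left out were 176 with a repeated or date-like name, 2796 that GENCODE vM21 did not hold and 66 that it held more than once. Multiplied by the gene span, 98.1 to 98.4% of the deposited RPKM values up to 20 reads came within 0.1 of a whole number, against 40.1 to 41.9% with the exon length. The span was therefore taken as their length, and values were converted to CPM with 1 constant for all libraries, which keeps the scaling of the authors. A gene needed more than 1 CPM in 2 or more libraries, and log2(CPM + 1) was tested with limma 3.58.1 (mean-variance trend, R 4.3.3), all 6 libraries in one fit, at a Benjamini-Hochberg adjusted p under 0.05. A fold change on this scale understates changes of low genes. TPM used the exon length instead. The alternatives were other pseudocounts, filters and scalings, RPKM without conversion, a replicate block, a fit per pair of lines, no trend, voom, centring on the chromosome or on neighbours, the limits in the study's text (a P value under 0.05, taken here as unadjusted, and an absolute log2 fold change above 0.58) and leaving out each library. Tables and figures used python 3.11.15, pandas 2.3.3, numpy 2.4.6, scipy 1.17.1 and matplotlib 3.10.9.

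Named were the 8 members, every tested gene of the further subunits and demethylases, per contrast and direction the 3 developmental regulators with the largest change among those called, and the 3 genes most like *Ezh1* and *Ezh2*. *Tbx3* was named after its values were seen. Some genes that met this rule are not reported here. Members, lists and tests were chosen with earlier results of these data known.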

Additional observations from a re-analysis of the deposited data

Results flagged for a closer look

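For 5 members the change against parental ESCs differed between the derived lines, as tested by the direct contrast of ESC + H/F-PRAMEL7 WT with ESC + H/F-PRAMEL7 ΔN in limma. The difference on the log2 scale was -0.43 for *Ezh1* (adjusted p = 0.0181), -0.63 for *Ezh2* (adjusted p = 0.00233), -0.38 for *Suz12* (adjusted p = 0.0283), -0.32 for *Jarid2* (adjusted p = 0.0213) and -0.35 for *Mtf2* (adjusted p = 0.0361). Over all genes tested, 20.4% passed in this contrast. Both libraries of ESC + H/F-PRAMEL7 WT were below both of ESC + H/F-PRAMEL7 ΔN for each of the 5. Since the 5 were picked by this contrast, that adds no support to the calls. Of all tested genes, 68.8% did not overlap, counted in either direction. Centring on the chromosome ended the calls of *Ezh2*, *Suz12* and *Jarid2*, and centring on neighbours that of *Mtf2*. *Ezh2* was called in 18 of 19 alternative fits, *Ezh1* in 14, *Suz12* in 12 and *Jarid2* and *Mtf2* in 11 each.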

How the results depend on the processing

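*Ezh1* and *Suz12* in ESC + H/F-PRAMEL7 WT were called in all 19 alternative fits. Of all member values over these fits, 378 kept direction and side of the threshold, 57 were no longer called, 5 became called and 16 changed sign. Counts of called members were 4 for ESC + H/F-PRAMEL7 WT, 4 for ESC + H/F-PRAMEL7 ΔN and 5 between the derived lines. Over all genes tested, 25.0, 19.9 and 20.4% were called in the same order. Centring on the chromosome gave 2, 2 and 2, centring on neighbours 2, 1 and 4, and the limits in the study's text 2, 0 and 1. Of all genes tested, 13.7, 12.3 and 12.4% passed the limits in the study's text. Without a filter the count between the derived lines was 2, with unconverted RPKM 1 and without a trend 2. The share of all genes called also moved with the setting. For ESC + H/F-PRAMEL7 WT against parental ESCs it was 7.61% without a filter and 16.3% with unconverted RPKM. The causes were not tested. Leaving out 1 library gave 2 to 4, 1 to 5 and 1 to 6 members. The lowest counts came without either library of ESC + H/F-PRAMEL7 WT (2 members, *Ezh1* and *Suz12*) and, for ESC + H/F-PRAMEL7 ΔN, without its replicate 1 (1 member, *Ezh2*) or replicate 2 (1 member, *Suz12*). Between the derived lines *Ezh2* alone remained without either library of ESC + H/F-PRAMEL7 WT or replicate 2 of ESC + H/F-PRAMEL7 ΔN, 3 members were called without replicate 1 of the latter, and 6 without either parental library. Leaving out a library leaves its line with 1 sample, assumed to vary like the others.

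Signs changed for values that had not been called. In ESC + H/F-PRAMEL7 WT, *Eed* had -0.0019 with unconverted RPKM, -0.0022 with voom, -0.0082 after centring on the chromosome and -0.24 to 0.26 with a library left out. After centring on the chromosome, *Ezh2* had 0.21 and *Aebp2* 0.13 there, *Jarid2* had 0.021 in ESC + H/F-PRAMEL7 ΔN, and *Aebp2* had 0.12 between the derived lines. After centring on neighbours, *Jarid2* had 0.069 and *Aebp2* -0.18 in ESC + H/F-PRAMEL7 ΔN, and *Aebp2* 0.14 between the derived lines. With a library left out, *Eed* ranged from -0.15 to 0.35 and *Mtf2* from -0.089 to 0.17 in ESC + H/F-PRAMEL7 ΔN, and *Eed* from -0.22 to 0.037 between the derived lines.

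With the replicate block 3, 4 and 4 members were called, and *Mtf2* was the member lost in the first and last contrast. Deviations of same-numbered libraries from their line means, over 8560 genes, correlated at 0.32, -0.36 and -0.12 for the 3 pairs of lines. The 2 deviations of a line mirror each other, so these 3 values cannot decide whether the numbers pair the samples. With 2 libraries per line, the 95% intervals of the members were 0.36 to 0.69 wide on the log2 scale.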
